A study of Parasteatoda tepidariorum with 16 samples.

Results

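Peripheral cells (p cells) of *Parasteatoda tepidariorum* embryos were sequenced at stage 4 and at stage 3, and the p cells of both stages are compared here. They made up 5 of the 16 samples of the series, 2 at stage 4 (st4_p) and 3 at stage 3 (st3_p). A gene was tested when it reached at least 1 CPM in at least 1 of these 5 libraries, which 9966 of 27990 gene models did. CPM are counts scaled to library size, so that libraries of unequal depth can be compared.

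By the labels, approximately 10 to 100 cells were drawn with a glass capillary from a central (c), intermediate (i) or peripheral (p) region of the germ disc of wild-type embryos of the Osaka isolate, and their polyadenylated RNA was sequenced. The study's methods give a narrower range of cell numbers for stage 3. The st4_p libraries came from embryos about 28 to 29 h after egg laying and the st3_p libraries from embryos about 20 h after egg laying. The labels give mother SN474 for every stage 4 library and mother T1459 for the stage 3 p and c libraries, so that the effects of stage and mother cannot be told apart. For comparison, c cells of the same stages and mothers were used (2 st4_c and 2 st3_c libraries), as were p cells of early stage 5 (2 st5e_p libraries, about 31 to 32 h, mother SN462) and i cells of stage 3 (3 st3_i libraries, mother NN819). The replicates are described as biological, but the labels do not say whether they came from separate embryos, so the p-values measure only the spread between these samples.

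The germ disc of a spider forms as cells gather on one side of the egg, and its rim and centre later give rise to different parts of the body axis. The eggs of animals are loaded with maternal RNA, much of which is degraded while the genome of the embryo starts to be transcribed. Ribosomal proteins, translation factors and chaperones build the machinery that makes and folds proteins, and their genes are among the most highly transcribed in growing cells.

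Total counts were 7100948 and 8731457 in st4_p and between 8487511 and 10500376 in st3_p, so that 3 counts corresponded to between 0.255 and 0.519 CPM. The stage 4 libraries differed from each other in breadth, with 4511 genes at 1 CPM or more in st4_p1 and 7799 in st4_p2, against 5466 to 7023 in st3_p. The level of all tested genes (log2 CPM) correlated with Pearson's r = 0.685 between the stage 4 libraries, 0.597 to 0.648 among the stage 3 libraries and 0.532 to 0.622 across stages, over the 9966 genes, which share a library and are not replicates. The summed level of 10 Group C genes, which the study chose as c-cell genes on the stage 3 libraries, was 32.8 and 222 CPM in st4_p against 3979 and 1691 CPM in st4_c, and at most 0.596 CPM in st3_p against 1339 and 3952 CPM in st3_c. The 6 genes of the germ disc rim summed to 523 and 1235 CPM in st4_p against 328 and 178 CPM in st4_c, whereas at stage 3 the sums in p cells (232 to 607.5 CPM) overlapped those in c cells (388.5 and 496 CPM).

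Of the 9966 genes, 351 (3.52%) differed between the stages at an adjusted p under 0.05 (edgeR's quasi-likelihood test, Benjamini-Hochberg). Of these, 219 (2.20%) rose at stage 4 and the other genes called (1.32%) fell. Both shares are the background for the numbers of rising and falling genes in each list below. The risers included 50 genes for ribosomal proteins, 13 for translation factors, 16 for nucleolar proteins (a list made after the values were seen) and 12 for chaperones, and 24 of the 219 (11%) had no informative product name. Among the genes that fell, 54 (40.9%) had none, compared with 2220 of the 9966 tested (22.3%). Of the genes that fell 12 belonged to any of the lists of known genes used here, as did 101 of the 219 that rose and 1058 of the 9966 tested.

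**Figure D1:**
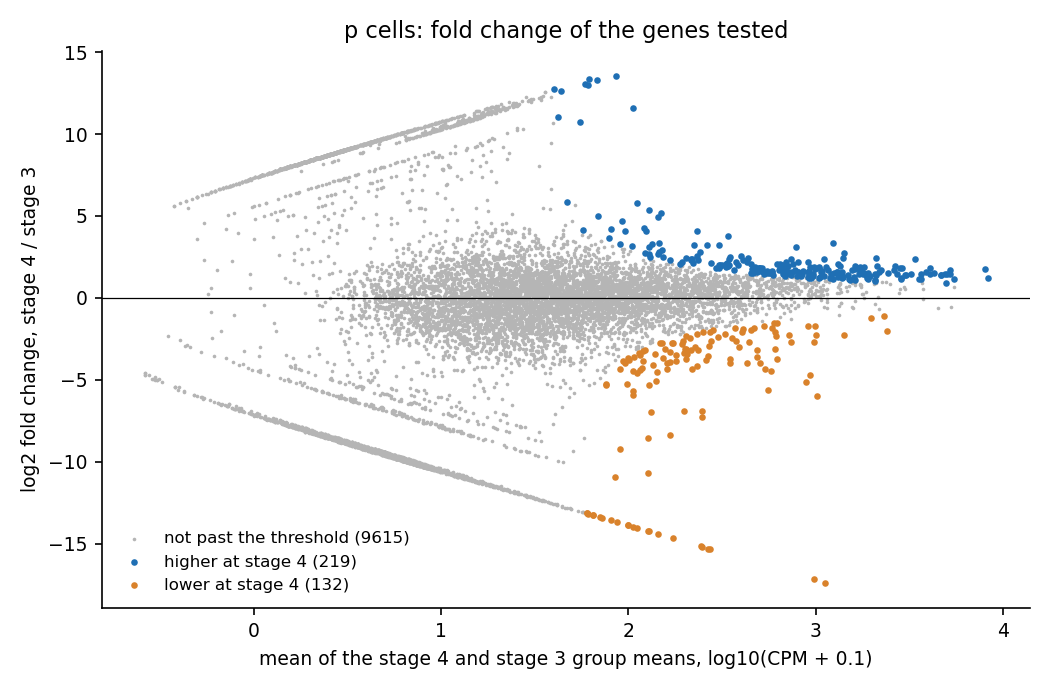
Log2 fold change (stage 4 over stage 3) of each of the 9966 genes tested in p cells, against the mean of the stage 4 and stage 3 levels in log10(CPM + 0.1). The 219 genes that rose lie mostly at high levels with moderate fold changes, the genes that fell span larger fold changes, and the diagonal bands at both edges are genes with no counts in one group, whose fitted fold changes depend on the fit's prior count.

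The share of the libraries taken by these genes is given as a description, since they were chosen by their levels in the same libraries. The 219 genes that rose held 34.3% and 33.9% of all counts in st4_p, against 17.3%, 14.5% and 12.6% in st3_p. The genes that fell held 1.25% and 0.809% in st4_p, against 7.28%, 9.06% and 10.6% in st3_p. Because all values are shares of a library, fewer cells of a type and less RNA per cell cannot be told apart in these samples. Scaling matters for the split: the trimmed mean (TMM) factors used here were 0.815 and 0.932 in st4_p against 1.077 to 1.199 in st3_p, and with library sizes alone the fold changes shifted by a median of -0.36 on the log2 scale, with 144 genes called higher and 224 called lower.

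In 210 of the 219 genes that rose both stage 4 libraries lay above all 3 stage 3 libraries, and in every gene that fell both lay below. Over all tested genes, 14.4% had both above and 10.9% had both below. The calls were made on the same contrast, so these shares are given as a description. The number of calls depended on the test: edgeR's likelihood ratio test called 118 genes (33 higher and 85 lower), and DESeq2 called 1319 (382 higher and 937 lower).

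Genes for the proteins of the cytosolic ribosome rose together. Of 79 tested, 50 rose, none fell and 76 had a positive fold change, with a median log2 fold change of 1.59 (quartiles 1.28 and 1.92), compared with -0.08 over all genes tested. Summed over the 81 genes of the list, they held 11.6% and 11.7% of all counts in st4_p, against 6.06%, 5.12% and 4.21% in st3_p, with no overlap between the stages. With library sizes alone the median was 1.21 and 40 genes rose. Leaving out each library in turn gave 37 to 53 rising genes, while the likelihood ratio test called only 1 of them higher at the same median of 1.59.

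Among them, the gene with the lowest p was *g7663*, for 60S ribosomal protein L6 (scaffold 826, positions 205016 to 211501 of Ptep_1.0). It had 6022 and 5261 CPM in st4_p, against 1445, 1100 and 739.5 CPM in st3_p (log2 fold change 2.37 ± 0.31, SE, adjusted p = 1.04e-11). *g17335*, for 40S ribosomal protein S2, had 4333 and 4076 CPM in st4_p, against 1519, 952 and 779.9 CPM in st3_p (1.96 ± 0.31, adjusted p = 2.17e-07). In both genes each stage 4 library was far above each stage 3 library. *g13959*, for the receptor of activated protein C kinase 1, a scaffold protein bound to the small ribosomal subunit and named here after its values were seen, had 2637 and 2318 CPM in st4_p, against 904, 844 and 468 CPM in st3_p (1.75 ± 0.34, adjusted p = 5.48e-05).

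Of 65 translation factor genes, 13 rose and none fell, against 2.20% and 1.32% of all genes tested. Their median log2 fold change was 1.02. Their share of all counts was 4.44% and 4.18% in st4_p, against 2.6%, 2.46% and 2.22% in st3_p. The 2 with the lowest p lie next to each other on scaffold 827. The first, *g7673* (a subunit A-like gene of initiation factor eIF3, which keeps the small subunit ready for mRNA), had 4461 and 4485 CPM in st4_p, against 901 to 1512 CPM in the 3 st3_p libraries (1.81 ± 0.31, adjusted p = 1.28e-06). The second, *g7674* (eIF5, which triggers GTP hydrolysis at the start codon), had 2309 and 1974 CPM in st4_p, against 536, 709 and 401 CPM in st3_p (1.97 ± 0.36, adjusted p = 9.44e-06). Neither gene overlapped between the stages.

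Other genes that act on mRNA in translation, named after their values were seen, moved in the same direction. *g27712*, for a polyadenylate-binding protein 4-like protein that covers the mRNA tail, had 6900 and 5717 CPM in st4_p, against 2411, 1687 and 1332 CPM in st3_p (1.80 ± 0.29, adjusted p = 2.33e-07). Elongation factor 2 (*g11106*), which moves the ribosome along the mRNA, had 8212 and 6507 CPM in st4_p, against 3125, 2559 and 2198 CPM in st3_p (1.49 ± 0.28, adjusted p = 1.65e-05). Elongation factor 1-alpha (*g27264*), which brings tRNAs to the ribosome, had 8057 and 7167 CPM in st4_p, against 3326, 2695 and 2325 CPM in st3_p (1.46 ± 0.28, adjusted p = 2.42e-05). A further gene model of the same product, *g1688*, also rose (1.41 ± 0.30, adjusted p = 0.000307, lost without st4_p1), and reads of near-identical copies may be split between such models. Across the left-out libraries 7 to 18 translation factor genes rose, and none of the 13 passed the likelihood ratio test.

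Nucleolar proteins, which make and assemble ribosomes, were grouped after the values were seen. Of 81 such genes tested, 16 rose and none fell, against 2.20% and 1.32% of all genes tested. A positive fold change was seen in 66 of the 81 (median 0.89). The nucleolin-like gene *g25260* (scaffold 93, positions 636841 to 657521) was the most highly counted of the genes named here, with 12580 and 12200 CPM in st4_p, against 3697, 3753 and 3414 CPM in st3_p (1.78 ± 0.26, adjusted p = 5.75e-09). Its replicates lay close together at both stages. *g24080*, for a nucleolar and coiled-body phosphoprotein, had 4681 and 4123 CPM in st4_p, against 1976, 1583 and 1392 CPM in st3_p (1.42 ± 0.30, adjusted p = 0.000281). The fibrillarin-like gene *g8823*, for a methyltransferase of ribosomal RNA, had 2496 and 1530 CPM in st4_p, against 784, 670.5 and 802 CPM in st3_p (1.42 ± 0.35, adjusted p = 0.00336). Its call was lost without st4_p1 or st3_p2, as was that of *g8686* (nucleolar protein 58-like, 1.14 ± 0.31, adjusted p = 0.00836), which was also lost without st3_p3.

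Chaperones rose in part. Of 107 chaperone and proteasome genes, 12 rose and none fell (median 0.70), and all 12 were chaperones or their partners. Mitochondrial heat shock protein 70 F (*g358*, scaffold 9, positions 1580582 to 1608519), which folds and imports proteins in mitochondria, had 2269 and 2625 CPM in st4_p, against 403, 321 and 359 CPM in st3_p (2.76 ± 0.37, adjusted p = 7.25e-11). Heat shock protein 83 (*g876*, scaffold 278, positions 225846 to 232012), the HSP90-type chaperone of insects, had 1924 and 5121 CPM in st4_p, against 721, 541 and 703 CPM in st3_p (2.44 ± 0.33, adjusted p = 2.95e-10). The stage 4 libraries thus differed widely in *g876*, and both lay above all stage 3 libraries. *g27985*, annotated as prostaglandin E synthase 3, which in mammals is the HSP90 co-chaperone p23, had 1437 and 2273 CPM in st4_p, against 441, 476 and 162 CPM in st3_p (2.39 ± 0.38, adjusted p = 2.06e-07).

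The cytosolic chaperonin, a ring that folds actin and tubulin, was set apart as a list after the values were seen. All 13 of its subunit genes had a positive fold change (median 1.99) and 4 passed the test: *g17924* (gamma), *g4663* (alpha), *g1884* (delta) and *g14778* (zeta). The gamma-like gene had 633 and 553 CPM in st4_p, against 169, 89.8 and 56.7 CPM in st3_p (2.49 ± 0.54, adjusted p = 0.000307). Heat shock cognate 4 (*g27068*), an HSP70 whose paralogs may share reads, had 4115 and 4605 CPM in st4_p, against 1446, 1187 and 1123 CPM in st3_p (1.80 ± 0.31, adjusted p = 1.56e-06). The mitochondrial chaperonin genes *g9893* (10 kDa) and *g9894* (60 kDa) are neighbours in the gene models and both rose (4.08 ± 1.10 and 1.56 ± 0.37, adjusted p = 0.00911 and 0.00195). The first had 259 and 103 CPM in st4_p, against 30.1, 0.0982 and 0 CPM in st3_p. The calls of the alpha, delta and zeta genes were lost without st4_p2, those of the delta and zeta genes and of *g9893* without st4_p1, those of the zeta gene, *g9893* and *g9894* without st3_p2, and that of the zeta gene without st3_p3. Leaving out each library in turn left 7 to 13 rising chaperone genes, and 2 passed the likelihood ratio test.

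**Figure D2:**
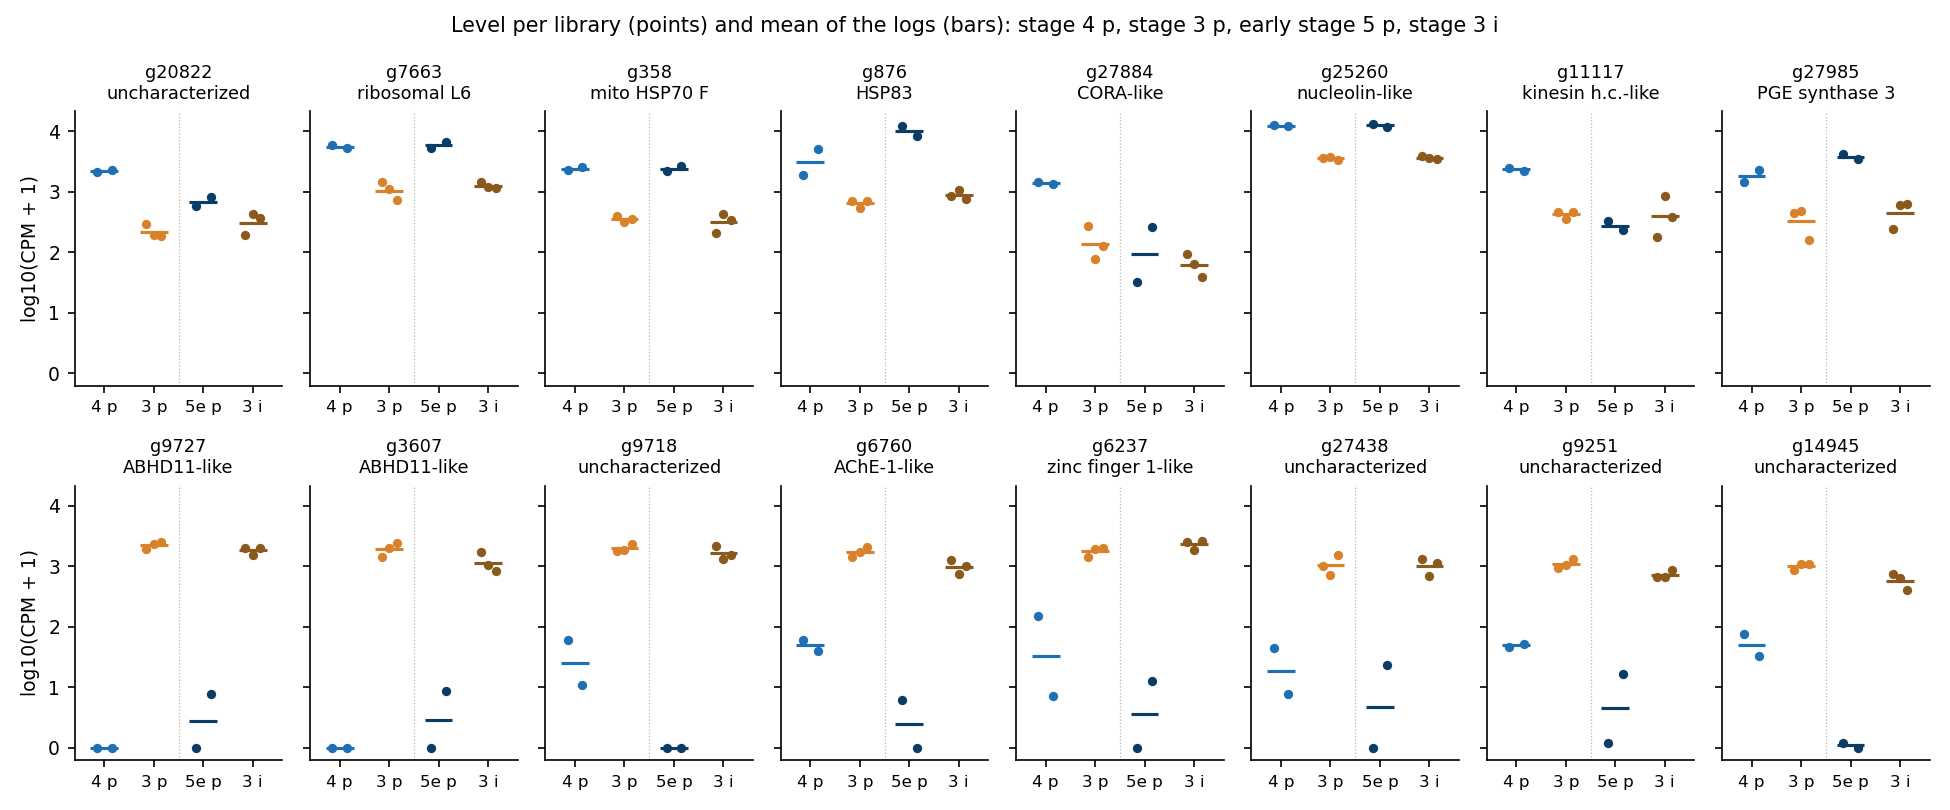
Level in log10(CPM + 1) of the 8 rising (upper row) and 8 falling (lower row) genes with the lowest p in p cells, for each library (points) with the mean of the logs (bars), in stage 4 p, stage 3 p, early stage 5 p and stage 3 i cells. The 16 genes were chosen among called genes in which the p cells of stage 4 and stage 3 do not overlap. *g11117* and *g27884* are high in stage 4 p cells but not in early stage 5 p cells.

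The gene with the lowest p among the risers has no known product. *g20822* (scaffold 4223, positions 16656 to 23155) had 2154 and 2326 CPM in st4_p, against 291.6, 191.5 and 185 CPM in st3_p (3.33 ± 0.39, adjusted p = 3.66e-14). *g27884*, named in the annotation after a cold- and drought-regulated plant protein, had 1478 and 1341 CPM in st4_p, against 273, 77.0 and 129 CPM in st3_p (3.13 ± 0.44, adjusted p = 5.34e-10). Both were also high in c cells of stage 4, with 3950 and 1830 CPM for *g20822* and 3208 and 1652 CPM for *g27884* in st4_c. In st3_c *g20822* had 258.6 and 474 CPM, below both st4_c libraries. There *g27884* had 397 and 1724 CPM, so that its c groups overlapped.

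Some gene models named as kinesin heavy chains rose, and no list of such genes was counted. Kinesin heavy chains are the motors that carry cargo along microtubules towards the cell periphery. *g11117* (scaffold 1264, positions 1 to 35575) had 2506 and 2216 CPM in st4_p, against 469.6, 362 and 467 CPM in st3_p (2.45 ± 0.36, adjusted p = 1.14e-08). The further heavy chain models, *g5178*, *g5179* and *g5180*, lie in a row on scaffold 626 beside *g5177*, an inner centromere protein A-like gene, and all rose (log2 fold changes 1.06, 1.40, 1.89 and 1.18 in that order, with *g5177* last; adjusted p = 0.0322, 0.00117, 7.01e-06 and 0.0126). *g5180*, for example, had 3862 and 1555 CPM in st4_p, against 1011, 533 and 637 CPM in st3_p. All 4 calls of the run were lost without st4_p1, those of *g5177*, *g5178* and *g5179* also without st3_p2 and those of *g5177* and *g5178* without st3_p3, and this run was named after the values were seen. Its members may be parts of 1 gene or share reads, which could not be tested from counts.

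The patterning genes were counted by family. Of 38 homeobox genes tested, 3 rose and none fell (median 0.65). Meis2 and extradenticle are partner homeodomain proteins (known from *Drosophila* and vertebrates) that bind DNA with Hox proteins, and the 3 risers were of this kind. *g13868* (Meis2, scaffold 1742, positions 239023 to 342524) had 419.8 and 458 CPM in st4_p, against 60.2, 0 and 14.3 CPM in st3_p (4.11 ± 0.72, adjusted p = 3.18e-06). *g13867* (Meis2), its neighbour on the same strand, had 469 and 481 CPM in st4_p, against 64.9, 56.4 and 35.2 CPM in st3_p (3.20 ± 0.63, adjusted p = 5.18e-05). The groups were far apart in both models, which may be parts of 1 gene. In c cells *g13868* had 84.6 and 66.6 CPM in st4_c, against 13.3 and 10.7 CPM in st3_c, and *g13867* had 68.6 and 93.8 CPM in st4_c, against 6.98 and 0.107 CPM in st3_c, so that the stages did not overlap in c cells either. The extradenticle-like gene *g13538* had 192 and 74.4 CPM in st4_p, against 11.9, 0 and 0 CPM in st3_p (4.97 ± 1.45, adjusted p = 0.0216), a call that was lost without either stage 4 library and without st3_p2.

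In the Hedgehog pathway, 2 of 7 genes rose. Hedgehog is a secreted signal and Patched its receptor, itself a common target of the pathway. The patched-like gene *g14374* had 498 and 514 CPM in st4_p, against 333, 43.1 and 0.596 CPM in st3_p (2.01 ± 0.54, adjusted p = 0.00836). The stage 3 libraries varied widely, and the call was lost without any one of st4_p1, st4_p2, st3_p2 and st3_p3. *Pt-hh* (*g4322*) had 36.3 and 399 CPM in st4_p, against 52.4, 63.0 and 0 CPM in st3_p (2.65 ± 0.79, adjusted p = 0.0247), and its groups overlapped. Without st4_p2 its log2 fold change was -0.03, and the call was also lost without st3_p3. Of 26 Wnt and Notch pathway genes none passed the test (median 0.03).

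Of 37 genes of the BMP, TGF-beta, FGF and EGF pathways, 1 rose. It was the fibroblast growth factor 8-like gene *g5611* (scaffold 671, positions 239636 to 329201), a secreted ligand, with 149 and 83.9 CPM in st4_p, against 0 in each of the 3 st3_p libraries. At a floor of 3 counts per library it was at least 428-fold higher at stage 4 (adjusted p = 0.0107), and the call was lost without either stage 4 library. None of 21 forkhead, Sox, T-box and bHLH genes passed the test (median 0.28).

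Few adhesion, actin and myosin genes passed the test, and those that did went in both directions. Over all genes tested, 2.20% rose and 1.32% fell. Of 63 adhesion and basement membrane genes, 2 rose and 2 fell (median 0.15). The gene annotated as fasciclin-2, a cell adhesion molecule of the immunoglobulin family, has more than 1 model among them. The model *g11491* had 822 and 449.7 CPM in st4_p, against 46.6, 33.0 and 56.3 CPM in st3_p (3.78 ± 0.61, adjusted p = 2.06e-07). The model *g24078* had 0 and 28.0 CPM in st4_p, against 67.1, 215 and 321 CPM in st3_p (-3.63 ± 1.09, adjusted p = 0.0302). The rise of *g11491* was called with any library left out, and the fall of *g24078* was lost when any library but st3_p1 was left out. The others were *g7077* (integrin alpha-8-like, at 1.90 and 158 CPM in st4_p and 0 in st3_p) and *g16213* (talin-2, which links integrins to actin, at 75.9 and 57.0 CPM in st4_p against 484, 282 and 313.5 CPM in st3_p). The call of *g7077* was lost without st4_p2 or any stage 3 library, and that of *g16213* (-2.47 ± 0.71, adjusted p = 0.0189) without st4_p1, st4_p2 or st3_p1.

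Of 94 actin and myosin genes, 2 rose and 3 fell (median 0.07). Cofilin (*g25510*), which severs actin filaments, had 399 and 328 CPM in st4_p, against 98.9, 113 and 0.681 CPM in st3_p (2.39 ± 0.64, adjusted p = 0.00815). An unconventional myosin-Ic-like gene, *g755*, had 0.519 and 0.123 CPM in st4_p, against 212, 170.3 and 154 CPM in st3_p, and was at least 403-fold lower (adjusted p = 0.00644). The spectrin chains, which line the cell membrane, went in opposite directions: the beta chain gene *g5549* rose (2.18 ± 0.66, adjusted p = 0.0324) and the alpha chain gene *g3038*, named after its value was seen, fell (-1.83 ± 0.51, adjusted p = 0.0122). *g4779*, a filamin A-interacting protein 1-like gene, had 238 and 30.3 CPM in st4_p, against 794, 904 and 1512 CPM in st3_p (-3.13 ± 0.53, adjusted p = 1.1e-06). The calls of *g25510*, *g755* and *g5549* were lost without either stage 4 library, those of *g25510*, *g5549* and *g3038* without st3_p3, that of *g3038* without st4_p2 and that of *g5549* without st3_p2.

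**Figure D3:**
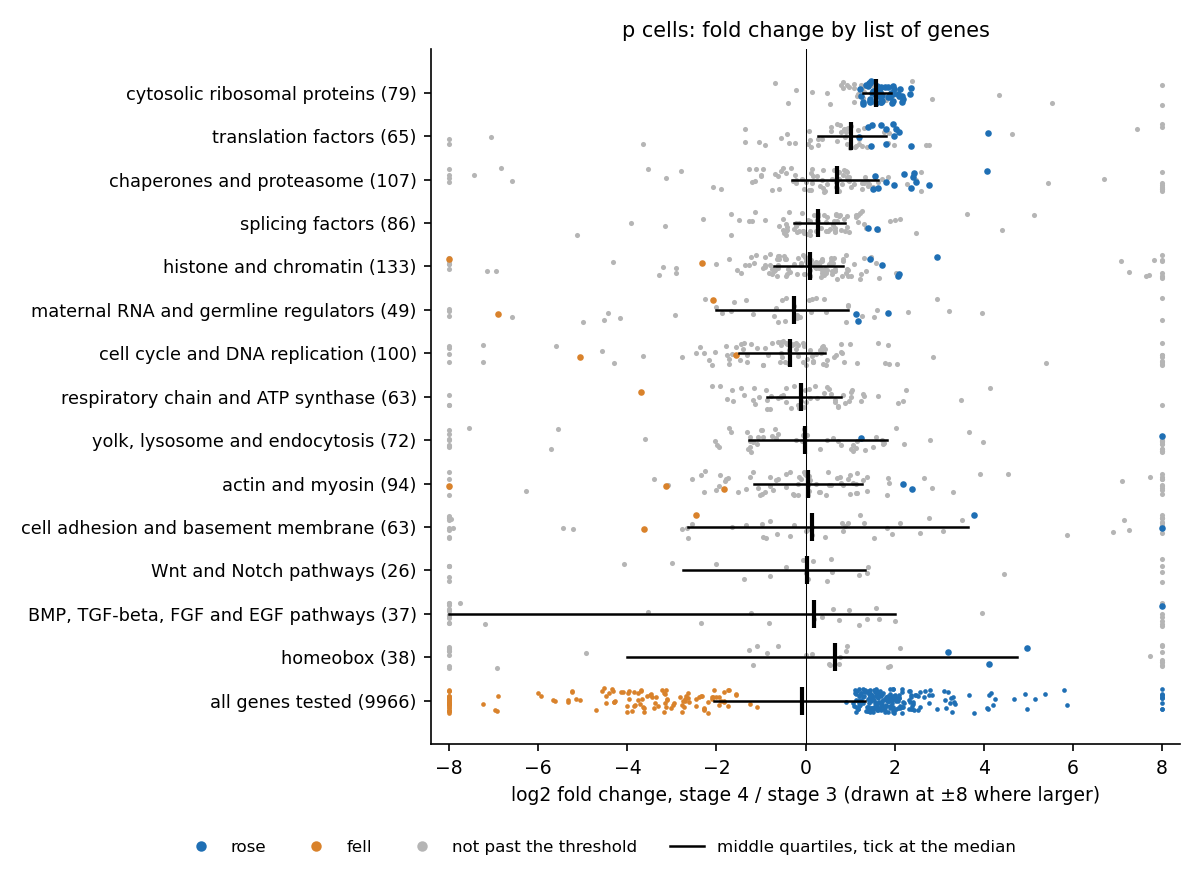
Log2 fold change (stage 4 over stage 3) in p cells of the tested members of 14 lists of genes, with all 9966 tested genes below, of which only those past the threshold are drawn as points. Black lines span the middle quartiles with a tick at the median, and values beyond ±8 are drawn at ±8. The ribosomal protein list lies to the right of 0 nearly as a whole (median 1.59), while all genes tested have a median of -0.08.

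The genes that fell were led by a family of serine hydrolases. ABHD11 proteins are alpha/beta hydrolases, which in mammals lie in mitochondria. The count table names 49 gene models ABHD11 or ABHD11-like, of which 13 were tested, 5 fell and none rose. *g9727* (scaffold 1062, positions 293368 to 300714) had no counts in either st4_p library, against 1909, 2332 and 2475 CPM in st3_p, and was at least 5050-fold lower at stage 4 (adjusted p = 1.79e-25). *g3607* (scaffold 488, positions 50982 to 59884) had none either, against 1415, 2022 and 2398 CPM in st3_p, and was at least 4390-fold lower (adjusted p = 3.82e-23). In these genes the stage 3 libraries were close to each other and the stage 4 libraries were both empty.

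The other 3, named after their values were seen, were also at 0 in both st4_p libraries. *g23929* had 118, 483 and 999.7 CPM in st3_p and was at least 1200-fold lower (adjusted p = 6.46e-08). *g9729* and *g9728*, the neighbours of *g9727* on scaffold 1062, were at least 583-fold and 476-fold lower (adjusted p = 0.000386 and 0.00186). *g9728* had only 0.619 CPM in st3_p1, against 232.5 and 401 CPM in the other stage 3 libraries. The calls of *g9729* and *g9728* were lost without st4_p2, and that of *g9728* also without st4_p1 or st3_p3. Together the 5 genes held 0.378%, 0.659% and 0.744% of all counts in st3_p. Near-identical family members may share reads, so the split between the models is uncertain.

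Other genes with high levels at stage 3 were nearly lost. *g9718*, of unknown product and also on scaffold 1062 (positions 37746 to 70770), had 59.6 and 9.70 CPM in st4_p, against 1807, 1851 and 2332 CPM in st3_p (-6.01 ± 0.61, adjusted p = 3.68e-19). The acetylcholinesterase-1-like gene *g6760*, whose named enzyme breaks down a neurotransmitter, had 60.1 and 39.3 CPM in st4_p, against 1411, 1694 and 2055 CPM in st3_p (-5.15 ± 0.58, adjusted p = 1.9e-15). The zinc finger protein 1-like gene *g6237* had 149.5 and 6.26 CPM in st4_p, against 1436, 1941 and 1998 CPM in st3_p (-4.71 ± 0.55, adjusted p = 1.43e-14). The stage 4 libraries differed widely from each other in *g9718* and *g6237*, but both lay far below stage 3.

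The 3 remaining genes with the lowest p, *g27438*, *g9251* and *g14945*, have no known product. *g27438* had 43.7 and 6.63 CPM in st4_p, against 1013, 728.5 and 1534 CPM in st3_p (-5.62 ± 0.72, adjusted p = 7.92e-12). *g9251* had 45.8 and 51.0 CPM in st4_p, against 922, 1038 and 1331 CPM in st3_p (-4.49 ± 0.62, adjusted p = 4.55e-10). *g14945* had 76.2 and 31.7 CPM in st4_p, against 851, 1106 and 1078 CPM in st3_p (-4.31 ± 0.63, adjusted p = 4.42e-09). All 3 had similar levels in the stage 3 replicates.

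Some single genes that fell act on glucose, glycogen or lipid. They were picked after their values were seen, and no list of such genes was counted. The bifunctional enzyme 6-phosphofructo-2-kinase/fructose-2,6-bisphosphatase (*g3232*) sets the level of the main activator of glycolysis. Its gene had 78.5 and 44.0 CPM in st4_p, against 725, 1046 and 1065 CPM in st3_p (-4.00 ± 0.62, adjusted p = 4.72e-08). Cytosolic phosphoenolpyruvate carboxykinase (*g10032*), which commits carbon to glucose synthesis, had 191 and 292.1 CPM in st4_p, against 894, 1209 and 1495 CPM in st3_p (-2.28 ± 0.46, adjusted p = 8.55e-05). Glycogen phosphorylase (*g7395*), which releases glucose from glycogen, had 30.4 and 13.1 CPM in st4_p, against 359, 613 and 279.5 CPM in st3_p (-4.34 ± 0.89, adjusted p = 0.000111). The perilipin-2-like gene *g15631*, for a coat protein of lipid droplets, also fell (-2.46 ± 0.58, adjusted p = 0.00162). The call of *g7395* was lost without st4_p2, and that of *g15631* without either stage 4 library.

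Proteins of the lumen of the endoplasmic reticulum were grouped after the values were seen. Of 24 genes tested, none rose and 5 fell, and 7 had a positive fold change (median -1.05). The gene of the 78 kDa glucose-regulated protein (*g5633*), the HSP70 of this compartment, had 81.8 and 45.2 CPM in st4_p, against 338, 632 and 459.7 CPM in st3_p (-2.96 ± 0.69, adjusted p = 0.0012). Its direction was thus opposite to that of the cytosolic and mitochondrial HSP70 genes *g27068* and *g358*. Calreticulin (*g16253*), a calcium-binding lectin chaperone, had 386 and 251 CPM in st4_p, against 879.8, 728 and 1156 CPM in st3_p (-1.56 ± 0.46, adjusted p = 0.0222). The others were *g4731* (calumenin), *g6032* (nucleobindin-2) and *g12476* (an oligosaccharyltransferase subunit STT3A-like gene), with log2 fold changes of -3.11, -3.70 and -2.78. The calls of *g5633*, *g16253*, *g4731* and *g12476* were lost without st4_p2, and those of *g16253* and *g12476* also without st4_p1 or st3_p3.

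Both subunits of the tuberous sclerosis complex, an inhibitor of the growth kinase mTOR in *Drosophila* and mammals, fell and are named after their values were seen. Tuberin (*g17663*) had 51.3 and 16.9 CPM in st4_p, against 314, 165.5 and 353 CPM in st3_p (-3.14 ± 0.88, adjusted p = 0.0132). Hamartin (*g2053*) had 0 and 25.4 CPM in st4_p, against 152, 259.9 and 149 CPM in st3_p (-3.65 ± 1.14, adjusted p = 0.0415). Neither gene overlapped between the stages, but both calls were lost without either stage 4 library, and that of hamartin also without st3_p2. Of 2 models annotated as myotubularin-related protein 14, a phosphoinositide phosphatase, *g27978* was at 0 in both st4_p libraries, against 226, 541 and 688 CPM in st3_p, and at least 1090-fold lower (adjusted p = 2.86e-07). The other, *g15186*, had 515 and 455 CPM in st4_p, against 2208, 1991 and 2845 CPM in st3_p (-2.28 ± 0.39, adjusted p = 1.27e-06).

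Regulators of maternal RNA and germline genes showed no common direction. Of 49 tested, 3 rose and 2 fell (median -0.26), against 2.20% and 1.32% of all genes tested. The rising genes were *g11104* (piwi-like protein 1, which with small RNAs silences transposons), *g5231* (pumilio homolog 3-like) and, named after its value was seen, *g11588* (argonaute-2-like). *g11104* had 8366 and 6689 CPM in st4_p, against 4747, 2786 and 2797 CPM in st3_p (1.13 ± 0.27, adjusted p = 0.00221), a call lost without st4_p1, st3_p2 or st3_p3. The CCR4-NOT complex shortens the poly(A) tails of mRNA, and the gene of its subunit 6 or 6-like (*g27048*) had 0.519 and 5.16 CPM in st4_p, against 399, 415 and 360.0 CPM in st3_p (-6.91 ± 1.28, adjusted p = 1.32e-05). *g5662* (tudor domain-containing protein 7, a germ granule protein in mammals) had 145 and 162 CPM in st4_p, against 764, 629 and 572 CPM in st3_p (-2.08 ± 0.54, adjusted p = 0.00564). Its call was lost without either stage 4 library, that of *g5231* without st4_p2 and that of *g11588* without st4_p2, st3_p2 or st3_p3.

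Of 133 histone and chromatin genes, 5 rose and 2 fell (median 0.11), against 2.20% and 1.32% of all genes tested. The 2 that fell were core histone genes, and how many other core histone genes were tested was not counted. Histone H3.1 (*g12364*) had 1.56 and 0 CPM in st4_p, against 127, 244 and 385 CPM in st3_p (-8.58 ± 1.91, adjusted p = 0.000576). Histone H2B (*g17398*) had 89.4 and 50.1 CPM in st4_p, against 451, 369 and 190.0 CPM in st3_p (-2.32 ± 0.72, adjusted p = 0.037). Nucleosome assembly protein 1-like 1 (*g13912*), a histone chaperone, had 3712 and 3157 CPM in st4_p, against 1403, 1070 and 654 CPM in st3_p (1.72 ± 0.32, adjusted p = 1.62e-05). The other risers were chromodomain-helicase genes *g13893* and *g5568*, the lysine demethylase 3B gene *g292* and *g2808* (bromodomain and WD repeat-containing protein 3), of which the last 3 are named after their values were seen. The call of *g12364* was lost without st4_p2 and that of *g17398* without any library but st3_p3. That of *g2808* was lost without any library but st3_p3 as well, and that of *g292* without st4_p1 or st3_p3. Histone mRNAs of the replication type often lack a poly(A) tail, and how completely these libraries captured them was not tested.

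Of 100 cell cycle and DNA replication genes, none rose and 2 fell (median -0.35), against 2.20% and 1.32% of all genes tested. The cyclin-B-like gene *g8469*, which drives mitosis, had 391 and 226 CPM in st4_p, against 891, 1153 and 629 CPM in st3_p (-1.56 ± 0.46, adjusted p = 0.0251). *g21134* (cyclin-dependent kinase 8, a Mediator kinase) had 0.691 and 13.4 CPM in st4_p, against 181, 357.9 and 280.0 CPM in st3_p (-5.07 ± 1.18, adjusted p = 0.00131). Both calls were lost without either stage 4 library, and that of *g8469* also without st3_p2. Respiratory chain genes were near the background (63 tested, none rose and 1 fell, median -0.11), as were splicing factors (86 tested, 2 rose, median 0.29), where *g8701* and *g27189*, for subunits of splicing factor 3B, rose (1.60 ± 0.42 and 1.40 ± 0.41, adjusted p = 0.00719 and 0.0209). The call of *g8701* was lost without st4_p1 and that of *g27189* without st4_p2, st3_p2 or st3_p3.

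Some genes were detected at 1 stage only. In 158 of the 9966 genes tested both st4_p libraries had 3 counts or fewer while all 3 st3_p libraries had at least 10 CPM. Only 25 of them passed the test. In 108 of the 9966 all 3 st3_p libraries had 3 counts or fewer while both st4_p libraries had at least 10 CPM, and 6 passed. Of the 158, 70 also had 3 counts or fewer in both st5e_p libraries, and of the 108, 47 had at least 10 CPM in both. The shares of all tested genes at these levels in st5e_p were not counted, so both numbers are given as a description. Beside *g5611*, the genes of the second kind that passed included *g16663* and *g10537*, of unknown product, with 179 and 94.3 CPM and 289 and 52.0 CPM in st4_p and 0 in st3_p. They were at least 502-fold and 628-fold higher (adjusted p = 0.00403 and 0.00109), and both calls were lost without st4_p1. A count of 3 sets the limit of detection here, and it covers counting error only, since PCR copies were not told apart.

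Genes of the rim and of the endoderm showed how far the 2 stage 4 libraries differed. Of 6 rim genes, *Pt-hh* and *Pt-fkh* rose, and of 9 endoderm genes tested, *fuchi* (*g26874*, a GATA-type transcription factor gene) and *g12453* rose. *fuchi* had 37.5 and 512 CPM in st4_p, against 65.9, 48.6 and 60.4 CPM in st3_p (2.33 ± 0.68, adjusted p = 0.0219), so that its groups overlapped, and without st4_p2 its log2 fold change was -0.63, while its call was also lost without st3_p2. *Pt-fkh* (*g6985*) had 33.7 and 150.3 CPM in st4_p, against 4.95, 0 and 0 CPM in st3_p (5.87 ± 1.85, adjusted p = 0.044), a call lost without any one of the 5 libraries. In c cells *Pt-fkh* had 227 and 39.9 CPM in st4_c and 0 in st3_c, so its higher level at stage 4 was not particular to p cells. *g12453* had 0.346 and 246.5 CPM in st4_p and 0 in st3_p, so that its call rested on st4_p2 and the gene was not tested without it.

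Summed over the 11 endoderm genes, st4_p1 had 39.9 CPM and st4_p2 had 1397 CPM, against 106 to 217 CPM in st3_p and 5103 and 2651 CPM in st4_c. The Group C gene *g15167* (EF-hand domain-containing protein D2) followed the same order, with 31.8 and 135 CPM in st4_p, against 0.0885, 0 and 0 CPM in st3_p and 975 and 525 CPM in st4_c (adjusted p = 0.0375, lost without any one of the 5 libraries). *Pt-otd* was near 0 throughout (0 and 4.79 CPM in st4_p, 0 in st3_p), and *Pt-lab1*, *Pt-BarH1* and *Pt-opa* did not pass the test (log2 fold changes 0.75, 0.94 and 0.20). The summed markers of c cells and endoderm were therefore higher in st4_p2 than in st4_p1. This was not particular to them: the rim genes summed to 523 CPM in st4_p1 and 1235 CPM in st4_p2. Of the 4576 tested genes that differed by more than 4-fold between these libraries, 3766 were higher in st4_p2. The part of c-cell and endoderm markers in the difference between the stages was not tested. *g6432*, a cathepsin L1-like gene, had 0.691 and 422 CPM in st4_p and at most 0.170 CPM in st3_p, and 905 and 1030 CPM in st4_c. Another cathepsin L1 gene, *g398*, was even between the stage 4 libraries (1720 and 1636 CPM in st4_p, against 681, 597.5 and 857 CPM in st3_p, adjusted p = 0.022), but its call was lost without st4_p1, st4_p2 or st3_p2. The 5 Group P genes, which the study chose as high in p cells on the same stage 3 libraries, all had negative fold changes. None passed the test, and because of that choice their direction is not independent evidence. Their summed level was also higher in st4_p2, with 0.346 CPM in st4_p1 and 125.5 CPM in st4_p2.

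**Figure D4:**
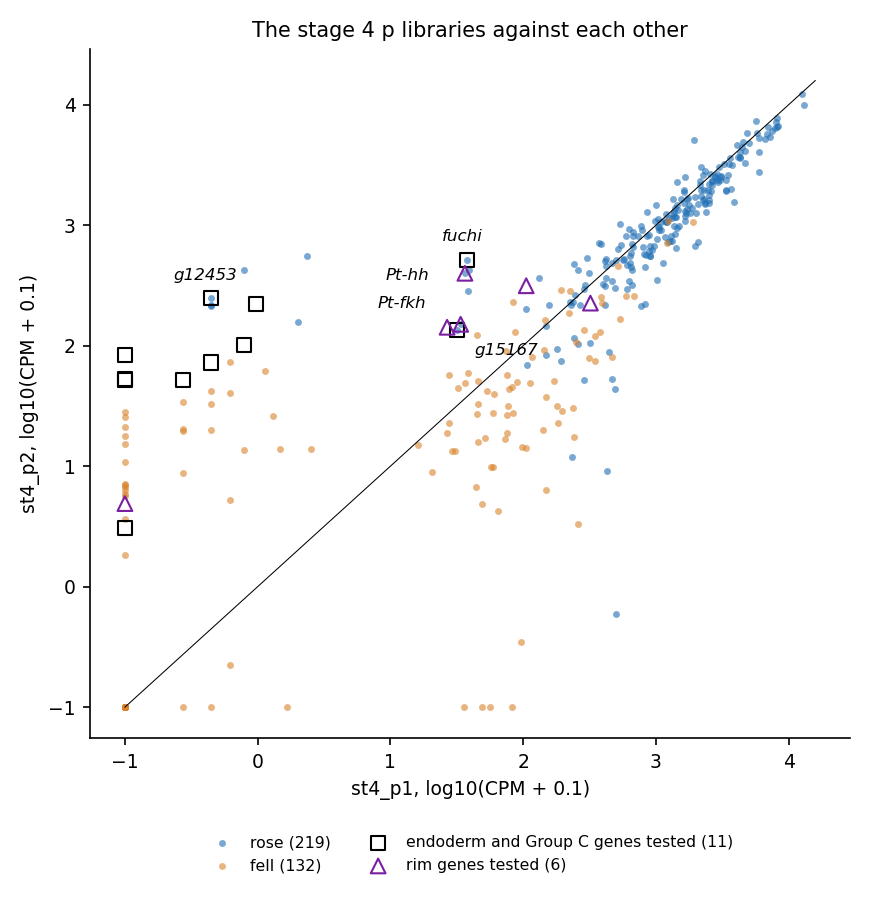
Level in st4_p2 against level in st4_p1, both in log10(CPM + 0.1), for the genes that rose (219) or fell in p cells and for the tested endoderm, Group C (squares) and rim (triangles) genes. The rising genes of high level follow the line of equality, whereas most endoderm and Group C genes and *fuchi* lie above it, with 512 CPM in st4_p2 and 37.5 CPM in st4_p1 for *fuchi*.

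The test favours genes whose replicates lie close together, so the spread between the stage 4 libraries in the called genes is given as a description. These libraries differed by more than 4-fold in 19 of the 219 genes that rose (8.68%) and in none of the 50 ribosomal protein genes that rose. They did so in 52 of the genes that fell (39.4%) and in 45.9% of all genes tested, where st4_p2 was the higher library in 3766 genes and st4_p1 in 810. Without st4_p2, 146 genes were called higher and 35 lower, of which 138 and 34 were among those called with it. Without st4_p1 the numbers were 113 and 74, with 106 and 69 shared.

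The same genes were then followed in libraries of other mothers, the st5e_p and st3_i libraries, which took no part in the calls. These differ from the first comparison in mother and age, and the earlier group consists of i cells. Of 10491 genes tested between them, 161 (1.53%) were higher in st5e_p and 102 (0.972%) lower. Of the 218 risers tested there, 208 (95.4%) were also higher in st5e_p and 91 (41.7%) passed the test in this direction. Among all genes with a positive fold change in p cells, 68.2% were higher there and 3.47% passed. Of the genes that fell, 128 (97%) were also lower and 59 (44.7%) passed, compared with 57.1% and 2.26% of all genes with a negative fold change. Both comparisons set a later stage of 1 mother against stage 3 of another, so that age and mother again cannot be told apart.

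In single libraries, the 4 later p libraries (st4_p and st5e_p) were all above the 6 stage 3 p and i libraries in 174 of the 219 genes that rose (79.5%), and all below in 116 of those that fell (87.9%). Over all tested genes these shares were 5.24% and 3.50%. The st4_p and st3_p libraries among them made the calls, so these shares are largely fixed by the choice of genes. They are given as a description. Ribosomal protein genes had a median log2 fold change of 2.08 between st5e_p and st3_i, with 57 of 80 higher, and held 14.4% and 15.9% of all counts in st5e_p against 5.07% to 5.2% in st3_i. *g7663* again stood out, with 5404 and 6598 CPM in st5e_p, against 1436, 1198 and 1174 CPM in st3_i (2.27, adjusted p = 0.00129). *g9727* had 0 and 6.73 CPM in st5e_p, against 1992, 1535 and 1978 CPM in st3_i (adjusted p = 0.000822).

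Not all genes differed in the same way there. *g11117* (kinesin heavy chain-like) had 333 and 231 CPM in st5e_p, against 180.1, 869.7 and 391 CPM in st3_i, so that the high level was seen in st4_p but in neither st5e_p nor st3_i. *g27884* had 32.1 and 267 CPM in st5e_p, against 92.3, 64.5 and 38.3 CPM in st3_i (adjusted p = 0.568). The cytochrome c oxidase subunit 3-like gene *g20563* (scaffold 3948, positions 1 to 13430), which names a protein that mitochondria encode in animals, was the 1 gene that passed in opposite directions. It had 44.9 and 123 CPM in st4_p, against 1665, 931 and 881 CPM in st3_p (-3.70 ± 0.55, adjusted p = 1.14e-08), but 1923 and 2064 CPM in st5e_p, against 93.4, 457 and 212 CPM in st3_i (2.97, adjusted p = 0.0361). The call in st5e_p was lost without st3_i1 or st3_i3 and with library sizes alone.

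**Figure D5:**
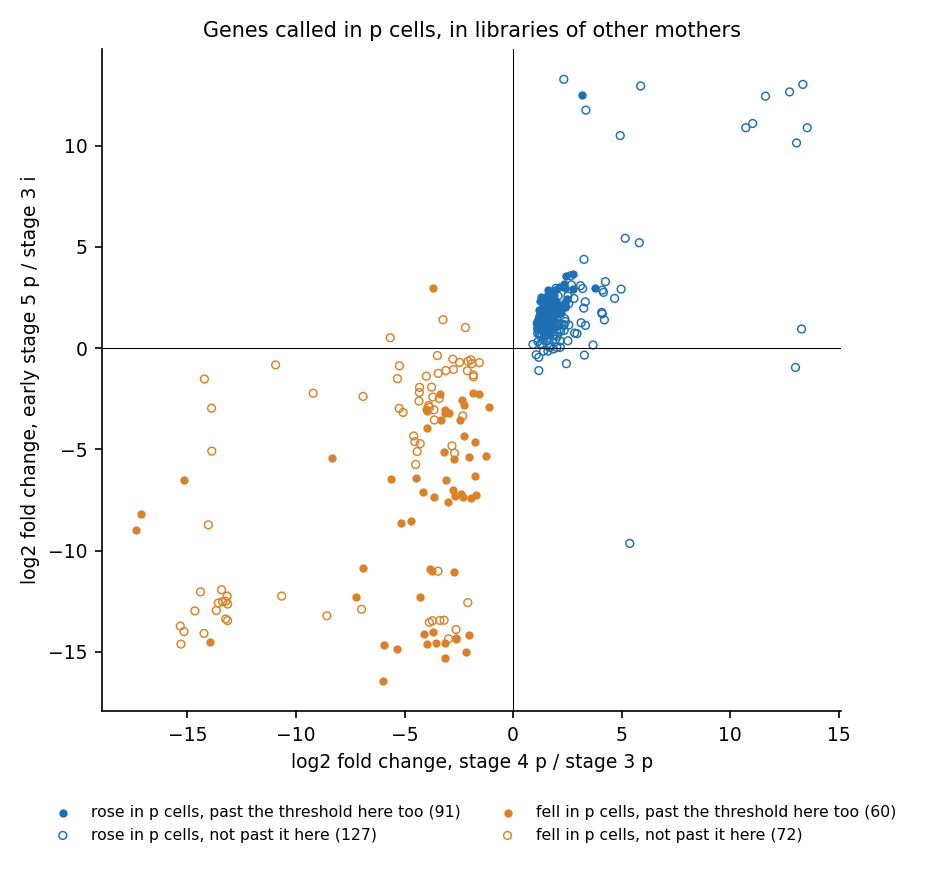
Log2 fold change between early stage 5 p and stage 3 i cells against log2 fold change between stage 4 and stage 3 p cells, for the called genes that were tested in both. Filled points passed the test in both comparisons, and 208 of the 218 genes that rose and 128 (97%) of those that fell lie on the same side of 0 on both axes.

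Finally, the change between the stages in p cells was set against that in c cells, which came from the same mothers. In c cells the 219 genes had a median log2 fold change of 1.49, compared with 1.80 in p cells, and 210 were positive (95.9%, against 60.2% of all genes with a positive fold change in p cells). The genes that fell had a median of -2.81 in c cells, compared with -3.74 in p cells, and 128 were negative (97%, against 58.8%). Both sets were chosen by their change in p cells, so these medians do not compare the size of the change between p and c cells. A test of the difference itself, over 11794 genes and 9 libraries, called 7 genes (0.0594%) at an adjusted p under 0.05, and 271 had an unadjusted p under 0.05. Of the 351 genes called in p cells, *g876*, *g27330* and *g7019* were among the 7.

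Heat shock protein 83 rose in p cells, and its change there was larger than in c cells. Its gene *g876* had 1351 and 2952 CPM in st4_c, against 1181 and 2061 CPM in st3_c, so that the c groups overlapped while the p groups did not. On the log2 scale the p cell change was larger than the c cell change by 2.02 ± 0.46 (edgeR, adjusted p = 0.0289), a call lost without any one of st4_p2, st3_p2, st4_c1 and st3_c2. *g7019*, annotated as uro-adherence factor A, had 83.7 and 27.3 CPM in st4_p, against 810.2, 892 and 720.1 CPM in st3_p, while c cells had 800.3 and 391 CPM in st4_c, against 862.5 and 455 CPM in st3_c (difference -3.80 ± 0.78, adjusted p = 0.00406). *g27330*, of unknown product, had 0.346 and 41.8 CPM in st4_p, against 226, 286 and 259 CPM in st3_p, but 1554 and 530 CPM in st4_c, against 249 and 509.6 CPM in st3_c (difference -4.87 ± 0.93, adjusted p = 0.00187). Both genes thus fell in p cells, whereas their c groups overlapped or lay higher at stage 4. The call of *g7019* was lost without st4_p2, st4_c1 or st3_c2, and that of *g27330* without st4_p1 or st4_c1, as was its call in p cells alone without either stage 4 p library. Without st4_c1 no gene passed this test.

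Changed genes sometimes stood side by side on the scaffolds. Pairs were not counted over all genes tested, so whether this is more frequent among changed genes was not tested. Among the risers there were 8 neighbouring pairs with 14 genes, among them the Meis2, kinesin, mitochondrial chaperonin and initiation factor genes named above. Among the genes that fell there were 11 pairs with 18 genes, including the 3 ABHD11 genes of scaffold 1062 and the run of *g7019*, *g7020* and *g7021* on scaffold 13. Adjacent models with the same product may be fragments of 1 gene, so the number of separate genes may be smaller than the number of calls.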

How the data were processed

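Poly(A) RNA libraries were made with a SMARTer Stranded kit. After trimming, the authors mapped reads with BLAT to the Ptep_1.0 assembly. They counted mapped reads per AUGUSTUS gene model (aug3.1) with HTSeq (0.5.4p5 in the submitters' processing notes) and deposited the raw counts per gene used here; the deposited RPKM values of the same libraries were not used. Product names and coordinates are those of the count table. The 5 rows that name no gene (0% of counts in the stage 3 and stage 4 libraries, up to 8.85% in early stage 5) were left out. These rows may not have been filled in for the stage 3 and stage 4 libraries, so the 0% may not be a measurement.

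Counts were analysed in R 4.3.3 with edgeR 4.0.16 (TMM, quasi-likelihood F test, Benjamini-Hochberg over all genes tested; limma 3.58.1). CPM values were scaled by TMM over all 16 libraries, except in the filter and the numbers of genes at 1 CPM, which used library sizes alone. Fold bounds set a group without counts to 3 counts per library, and SE is the log2 fold change over the square root of F. Alternatives were the likelihood ratio test, DESeq2 1.42.0, an older quasi-likelihood fit, other scalings, filters and prior counts, all 16 libraries in one fit, a replicate block, and each library left out. The fits were tested on simulated data.

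Genes were named by rule: the 8 genes per direction with the lowest p, up to 2 called genes per direction of each list, genes listed by ID, and the 4 genes with the lowest p of the p against c test. Others are marked as chosen after their values were seen. The genes and lists were chosen with earlier results of these data known, and lists made by product name were trimmed of false matches by name.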

Additional observations from a re-analysis of the deposited data

Results flagged for a closer look

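The change between the stages differed between p and c cells in 7 of the 11794 genes tested for it, by edgeR's quasi-likelihood test of the difference with Benjamini-Hochberg adjustment. Each is given as the log2 fold change in p cells minus that in c cells, with its SE.

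In 3 genes p cells changed more than c cells or against them. The difference was -4.87 ± 0.93 (adjusted p = 0.00187) in *g27330*, -3.80 ± 0.78 (adjusted p = 0.00406) in *g7019* and 2.02 ± 0.46 (adjusted p = 0.0289) in the heat shock protein 83 gene *g876*.

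In the other 4 genes the change lay mainly in c cells, and none passed the test within p cells. *g4763*, of unknown product, had 305 and 93.0 CPM in st4_p, against 750.1, 148 and 118 CPM in st3_p, and 45.2 and 13.8 CPM in st4_c, against 859 and 1525 CPM in st3_c (difference 4.56 ± 0.92, adjusted p = 0.00406). *g3783*, also of unknown product, had 606 and 134 CPM in st4_p, against 1105, 434 and 249.8 CPM in st3_p, and 196 and 141 CPM in st4_c, against 1235 and 2550 CPM in st3_c (difference 2.76 ± 0.65, adjusted p = 0.0375). Without a product name were also *g19817* (difference -2.14 ± 0.49, adjusted p = 0.0289) and *g17422* (difference -2.63 ± 0.62, adjusted p = 0.0375), both higher in st4_c than in st3_c, with 3843 and 3240 CPM in st4_c against 526.5 and 1354 CPM in st3_c for *g19817* and 2175 and 1391 CPM in st4_c against 145 and 367 CPM in st3_c for *g17422*.

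Within each stage the p and c libraries share a mother, so a difference between mothers that is the same in p and c cells does not enter these values. All 7 calls were lost without st4_c1 and with the likelihood ratio test.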

How the results depend on the processing

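The count of genes called between stage 4 and stage 3 p cells (351) was 118 with the likelihood ratio test, 1319 with DESeq2, 566 with all 16 libraries in one fit, and 181 to 405 with each library left out. It stayed within 348 to 387 under the other scalings, filters, prior count and the older fit. For the difference between p and c cells the count (7) was 271 with DESeq2, 23 with the older fit and 0 to 13 with each library left out. For st5e_p against st3_i the count (263) was 541 with the likelihood ratio test, 1496 with DESeq2 and 143 to 240 with each library left out. Of the 115 genes named for the p cells, 51 kept their direction and side of the threshold with the likelihood ratio test, 103 with DESeq2 and 96 with library sizes alone. The cause of these differences was not tested.

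Replicate numbers were not used as pairs in the main fits. Deviations of same-numbered p libraries of stage 4 and stage 3, which have different mothers, correlated at -0.007 and 0.001. The deviations of the 2 stage 4 libraries mirror each other, so these values cannot decide whether samples were paired. Whether same-numbered p and c libraries of a stage belong together was not tested. With the replicate block the counts were 213 for p cells, 3 for p against c cells and 1 for st5e_p against st3_i, with fewer residual degrees of freedom, and the log2 fold change of *Pt-opa* was -0.20.

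Log2 fold changes that turned in direction when a library was left out ranged from -0.20 to 0.53 for *Pt-opa*, -1.10 to 0.92 for *g17422*, -0.63 to 3.13 for *fuchi*, -0.03 to 3.42 for *Pt-hh*, -0.31 to 1.26 for *Pt-lab1*, -0.84 to 1.57 for *Pt-BarH1*, -2.12 to 10.95 for *g18848*, -1.34 to 0.44 for *g19817*, -2.16 to 0.05 for *g3783*, -1.87 to 0.51 for *g4763* and -3.45 to 6.84 for *g25634*. Leaving out st4_p2 turned *fuchi*, *Pt-hh*, *Pt-lab1*, *Pt-BarH1*, *g18848*, *g19817* and *g3783*, leaving out st4_p1 turned *g25634*, *g17422* and *Pt-opa*, leaving out st3_p1 turned *g4763*, *g3783* and *g17422*, and leaving out st3_p2 or st3_p3 turned *g19817* or *Pt-opa*, in that order. Library sizes alone gave -0.18 for *Pt-opa* and -0.25 for *g17422*.

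Depth limits genes near 3 counts, and 2 stage 4 libraries limit every call.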

Other observations

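Further genes that changed in p cells belong to none of the groups described above and were picked after their values were seen. Among those that fell, the dynamin-1 gene *g12002*, for a GTPase that pinches off membrane vesicles, had 0 and 1.72 CPM in st4_p, against 264, 402 and 329 CPM in st3_p (log2 fold change -8.34 ± 1.64, adjusted p = 5.14e-05, edgeR). The papilin gene *g4424*, for a protein of the extracellular matrix, had 464 and 80.1 CPM in st4_p, against 1754, 1525 and 1735 CPM in st3_p (-2.71 ± 0.44, adjusted p = 3.94e-07), and at most 1.15 CPM in st5e_p. A ubiquitin ligase-like gene, *g19992*, had 1202 and 707 CPM in st4_p, against 3765, 3797 and 3983 CPM in st3_p (-2.02 ± 0.34, adjusted p = 1.01e-06), and 37.8 and 77.1 CPM in st5e_p, against 3210, 2056 and 2013 CPM in st3_i. The last 2 genes were thus lower in st4_p than in st3_p and lower still in st5e_p, a later stage of another mother.

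A pair of carbonic anhydrase 1 genes on scaffold 1196, *g10645* and *g10648*, fell together (-2.62 ± 0.66 and -2.05 ± 0.63, adjusted p = 0.00368 and 0.0331) and was at 0 in both st5e_p libraries. Both calls were lost without st4_p2, and that of *g10648* also without st3_p2 or st3_p3. Among the genes that rose, septin-7 (*g9025*), a filament protein of the cell cortex, had 227 and 232 CPM in st4_p, against 30.5, 28.9 and 21.5 CPM in st3_p (3.1 ± 0.84, adjusted p = 0.00991), a call lost without either stage 4 library. The importin beta-1-like gene *g1937*, for a carrier of proteins into the nucleus, had 467 and 343.5 CPM in st4_p, against 102, 23.3 and 0.255 CPM in st3_p (3.26 ± 0.68, adjusted p = 0.000162).

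Some calls rested on a single stage 4 library. *g25634*, basic proline-rich protein-like, had 501 and 0.491 CPM in st4_p, against 4.07, 13.4 and 0 CPM in st3_p, and *g18848*, for glycine dehydrogenase, had 2.25 and 557 CPM in st4_p, against 0.0885, 0.196 and 27.8 CPM in st3_p. Both passed the test (adjusted p = 0.000276 and 2.68e-05) although their groups overlapped, and each turned in direction when its high library was left out.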
